A study of Mus musculus with 12 samples.

Results

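The effect of a diet rich in fat, cholesterol and fructose (HFCF) on the liver transcriptome was examined in WT male mice, using the 3 HFCF WT libraries and the 3 chow WT libraries, 6 of the 12 libraries in the series. The series measured bulk RNA-seq in mouse liver and set mice lacking hepatocyte HuR (the RNA-binding protein encoded by Elavl1) beside WT mice, on each diet. All mice were C57BL/6N males with 2 floxed Elavl1 alleles (HuR F/F), aged 4 to 6 months when they received a virus. The WT mice received AAV8-Tbg-null, a liver-tropic virus with the hepatocyte promoter Tbg and no Cre, so that both WT groups carried the floxed alleles and a viral injection. The HuRHep-/- mice received AAV8-Tbg-Cre, which deletes the floxed gene in hepatocytes. HFCF mice were fed for 16 weeks a diet in which fat supplied 40% of the energy and fructose 20%, with 2% cholesterol added. Chow mice were fed normal chow for a time that the labels do not give.

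The chow and HFCF libraries were deposited in separate tables, so diet and anything else that differed between the tables cannot be told apart in any result given here. The labels number the replicates and do not say how the mice were housed or whether the livers were processed together, so that p-values measure the spread between these samples. Livers were sequenced whole, and fewer cells of a type and less RNA per cell cannot be told apart.

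The liver takes up cholesterol from the diet and also makes it, and it holds both processes in balance through SREBP2, a membrane-bound transcription factor that is released to the nucleus when membrane sterol is low and kept back when it is high. Oxysterols and fatty acids act on the nuclear receptors LXR, PPARalpha and PPARgamma, which control sterol export, fatty acid oxidation and fat storage. SREBP1c, made from the Srebf1 gene, drives fatty acid synthesis from sugar, and fructose is a strong substrate for that pathway in hepatocytes.

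Expression is given as a gene's counts per 1000000 counts of its library (CPM) after TMM scaling, which sets libraries to a common level over most genes. Changes are given as log2 fold changes of HFCF over chow with their standard errors (SE), from limma fitted to all 13699 tested genes, with Benjamini-Hochberg adjusted p-values. To be a DEG a gene needed an adjusted p no higher than 0.05, a fold change no lower than 1.5, and in each diet 10 or more counts summed over its 3 libraries. Genes are said to rise or fall only where they were DEGs. The median log2 fold change of all tested genes was 0.00, and 50.1% of them had a positive estimate. Total counts per library ran from 31956699 to 34447127 in the chow WT libraries and from 30071731 to 35949203 in the HFCF WT libraries.

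There were 954 DEGs. Of the tested genes, 587 rose (4.28%) and 367 fell (2.68%). Groups did not overlap in 5306 genes (38.7% of those tested), which include 953 of the DEGs. The exception was Fabp5. At least 4-fold changes were seen in 75 DEGs that rose and 20 that fell. The first principal component held 52.4% of the variance and separated the diets, with chow scores of -43.6, -24.5 and -32.1 and HFCF scores of 36.7, 17.3 and 46.2. The library HFCF WT 2 was thus the HFCF library nearest to chow. Over the DEGs that rose, its median level above the chow mean was 0.86 on the log2 scale, against 1.07 in HFCF WT 1 and 1.25 in HFCF WT 3. Without HFCF WT 2 there were 917 DEGs that rose and 464 that fell. Leaving out any other library but chow WT 2 lowered both counts by more than 1.5 times, to 127 and 92 without chow WT 1, 151 and 88 without chow WT 3, 193 and 202 without HFCF WT 1, and 219 and 195 without HFCF WT 3. Without 1 library, 920 to 949 of the 954 DEGs were fitted and had the same direction. The shares of all tested genes that rose and fell are the background for the count of each list. The split between rises and falls moved with the scaling: 61.5% of DEGs rose under TMM, 88.1% when libraries were scaled by their totals alone, which moved the median of all genes to 0.18, and 51.3% under quantile normalization.

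Promoters of cholesterol synthesis genes are shown first, because the enzymes of that pathway were the group in which falls were most frequent among the lipid genes described. Each line gives the 250 bases before the start of transcription, 5′ to 3′ on the strand of the gene, from RefSeq on GRCm38.p6. Capitals mark the letters TCACNCCAC, which resemble the sterol response element bound by SREBP factors, and CCAAT, the box bound by NF-Y, each searched on both strands with overlaps allowed (ATTGG is CCAAT on the opposite strand). The genes are Hmgcs1 (chr13:119690101-119690350, plus strand), Nsdhl (chrX:72918271-72918520, plus strand), Idi1 (chr13:8885356-8885605, plus strand) and Cyp51 (chr5:4104698-4104947, minus strand). They were chosen after their values were seen.
Hmgcs1: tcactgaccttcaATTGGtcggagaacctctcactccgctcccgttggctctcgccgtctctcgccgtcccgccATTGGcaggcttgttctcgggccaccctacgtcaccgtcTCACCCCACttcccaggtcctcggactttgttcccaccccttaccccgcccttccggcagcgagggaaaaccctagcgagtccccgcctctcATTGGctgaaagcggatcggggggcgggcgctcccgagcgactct
Nsdhl: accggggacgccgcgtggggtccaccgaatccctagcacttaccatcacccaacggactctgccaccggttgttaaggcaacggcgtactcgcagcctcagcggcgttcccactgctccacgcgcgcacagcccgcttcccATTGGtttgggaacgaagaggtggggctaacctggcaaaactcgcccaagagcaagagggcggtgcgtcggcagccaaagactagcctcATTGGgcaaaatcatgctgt
Idi1: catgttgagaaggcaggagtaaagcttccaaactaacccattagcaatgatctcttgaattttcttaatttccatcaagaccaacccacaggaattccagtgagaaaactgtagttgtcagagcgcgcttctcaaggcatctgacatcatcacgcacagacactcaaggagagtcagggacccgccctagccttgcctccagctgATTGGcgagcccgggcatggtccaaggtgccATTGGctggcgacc
Cyp51: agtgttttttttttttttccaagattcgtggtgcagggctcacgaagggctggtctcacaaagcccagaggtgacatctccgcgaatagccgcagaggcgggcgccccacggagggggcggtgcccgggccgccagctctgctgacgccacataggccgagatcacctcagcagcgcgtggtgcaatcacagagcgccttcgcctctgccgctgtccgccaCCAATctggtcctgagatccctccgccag
Of the 21 tested enzymes 16 had a promoter in the table. The CCAAT letters were in 15 of these 16 (93.8%), against 40.5% of the 10511 tested genes with a promoter and 33.8% of all 32851 promoters. The TCACNCCAC letters were in 1 of the 16, Hmgcs1, against 1.30% of tested genes and 1.05% of all promoters. All 6 DEGs of the pathway with a promoter held CCAAT and 0 held TCACNCCAC. A match of letters is a description of the sequence alone.

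Cholesterol synthesis enzymes fell more often than they rose. Of 21 tested enzymes 9 fell and 1 rose, beside falls in 2.68% and rises in 4.28% of all tested genes, with a median log2 fold change of -0.61, and 20 of the 21 estimates were negative. Hmgcs1, the HMG-CoA synthase of the pathway, had 84.6, 103 and 110 CPM on chow and 93, 48.4 and 57.8 CPM on HFCF. Here HFCF WT 1 lay within the chow range, and the gene was not a DEG (log2 fold change -0.62, adjusted p = 0.0972).

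Falls came further down the pathway. Idi1, the isomerase that makes the building block for chain growth, went from 84.1, 126 and 113 CPM to 25.4, 15.2 and 16.6 CPM, a log2 fold change of -2.51 (SE 0.22, adjusted p = 0.00257). Sqle, squalene epoxidase, the second control point of the pathway (chromosome 15, 59315077 to 59331192 on GRCm38, plus strand), went from 16.2, 28.2 and 30.9 CPM to 6.74, 1.87 and 2.45 CPM. Every HFCF library lay below every chow library for both genes. The log2 fold change of Sqle was -2.94 (SE 0.46, adjusted p = 0.0125), the largest in the list, and its call was lost without chow WT 3, where the adjusted p was 0.0561. Nsdhl, which removes a methyl group from the sterol ring, fell from 57.9, 72 and 72.2 CPM to 21.4, 17.4 and 15.8 CPM (log2 fold change -1.89, adjusted p = 0.00153). Cyp51, the lanosterol demethylase, fell by 1.88 on the log2 scale, and Tm7sf2, a sterol reductase, by 1.43. Pmvk, a mevalonate pathway kinase, fell by 1.22, Msmo1, a sterol methyl oxidase, by 1.15, and Fdps, farnesyl diphosphate synthase, by 0.92, with groups that did not overlap in any of these 5 genes. About 18.8% of the 31-base words of the Idi1 transcripts also occur in other genes, chiefly the gene model Gm13502.

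The number of enzymes that fell was 5 without chow WT 3, the lowest of the fits without 1 library, and 10 without HFCF WT 1.

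**Figure D1:**
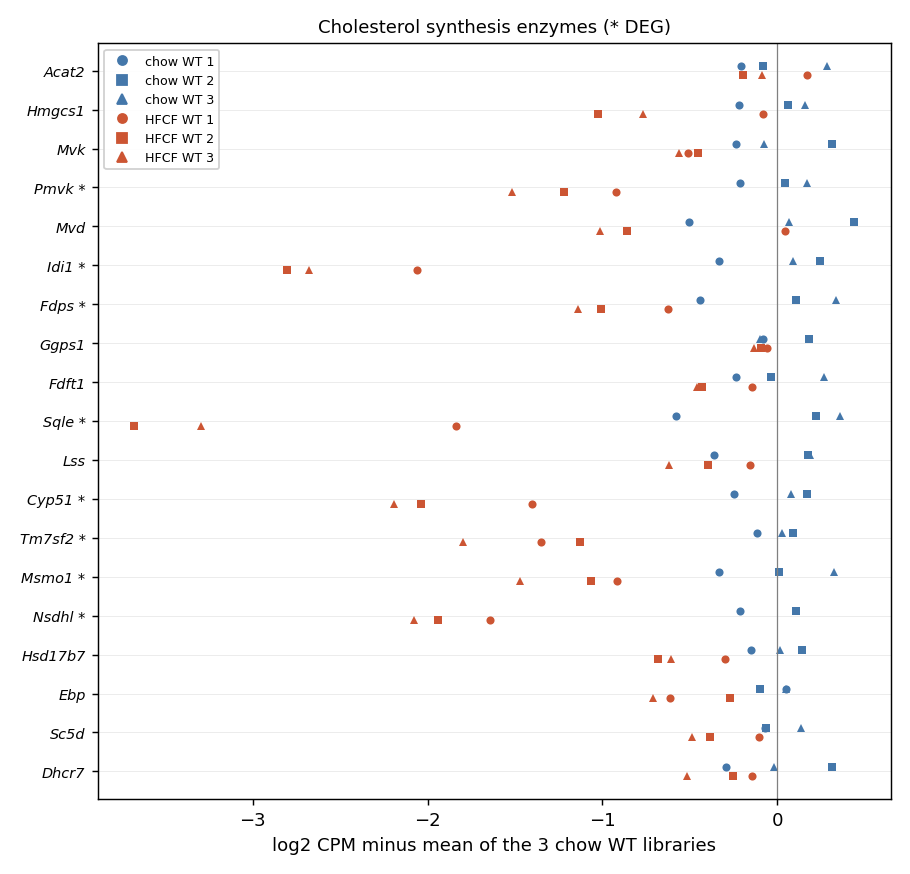
Each row is 1 of 19 cholesterol synthesis enzymes, and each point is 1 library, drawn as log2 CPM minus the mean of the chow WT libraries (blue, chow WT; red, HFCF WT; marker shape, replicate; asterisk, DEG). Red points lie to the left of blue ones for the 8 enzymes marked as DEGs, furthest for Sqle (log2 fold change -2.94) and Idi1 (-2.51).

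Of 10 tested genes that sense sterol and take up LDL 1 fell and 0 rose, with 6 positive and 4 negative estimates. Their median of 0.08 turned to -0.03 after GC and length trends were removed and ran from -0.01 to 0.13 when 1 library was left out. With totals alone it was 0.26, and the list then held 0 DEGs. The gene that fell was Stard4, a cytosolic sterol carrier, by 0.87 (adjusted p = 0.0313), and it was not a DEG without any 1 of the chow libraries or without HFCF WT 3. Srebf2, which encodes SREBP2, had 19.6, 24.7 and 26.5 CPM on chow and 25.9, 27.1 and 25.5 CPM on HFCF, with overlapping groups (log2 fold change 0.16, adjusted p = 0.368). 

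Genes of sterol efflux and storage rose in part. Of 15 tested members 4 rose and 0 fell, with a median of 0.44 (0.29 without HFCF WT 1). Abcg5, a subunit of the transporter that secretes sterols into bile, had 86.6, 54.3 and 79.8 CPM on chow and 119, 231 and 147 CPM on HFCF, a rise of 1.14 (SE 0.26, adjusted p = 0.0296). Its partner Abcg8 had 108, 75.7 and 94.7 CPM against 107, 225 and 123 CPM. HFCF WT 2 had the highest level of both genes, and HFCF WT 1 lay within the chow range for Abcg8, which was not a DEG (log2 fold change 0.64, adjusted p = 0.136). Abcg1, a sterol exporter, rose from 2.7, 3.47 and 3.01 CPM to 7, 7.17 and 10.5 CPM (1.40, SE 0.19, adjusted p = 0.0104). Soat1, which esterifies cholesterol, rose by 0.86, and Lipa, the lysosomal lipase that frees it again, by 0.68. Abcg5 was a DEG in 2 of the 6 fits without 1 library and was not a DEG with the replicate number as a block. Abca1, the exporter to apolipoprotein A-I, had 81.9, 107 and 80.5 CPM against 109, 115 and 103 CPM, with a log2 fold change of 0.29 (adjusted p = 0.125). The list held 1 DEG without chow WT 2, and 2 without chow WT 1, chow WT 3 or HFCF WT 3.

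Bile acid genes held 1 DEG in all. None of 16 tested synthesis and conjugation genes were DEGs. Their median of 0.04 ran from -0.06 to 0.11 when 1 library was left out and was 0.21 with totals alone. Cyp7a1, the rate-limiting enzyme of bile acid synthesis, had 50.6, 109 and 109 CPM on chow and 72.8, 285 and 157 CPM on HFCF. HFCF WT 1 lay between the chow libraries, and the log2 fold change was 0.81 (SE 0.49, adjusted p = 0.286). Cyp7b1, of the alternative pathway, had 327, 420 and 183 CPM against 126, 224 and 62.1 CPM (-1.28, adjusted p = 0.1). Cyp8b1, which sets the share of cholic acid, and Cyp27a1, the mitochondrial sterol hydroxylase, had estimates of 0.03 and -0.16. Among 14 transport and FXR genes Slco1a4, an organic anion importer, fell by 1.67 (adjusted p = 0.017). Abcb11, the bile salt export pump, had 371, 312 and 324 CPM against 235, 272 and 224 CPM without overlap. Its adjusted p was 0.0285 and its change of -0.46 was under the 1.5-fold limit. Nr0b2, the FXR target SHP, had an estimate of -0.05 and overlapping groups. Slco1a4 was not a DEG without chow WT 1, chow WT 3 or HFCF WT 1.

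Fatty acid and triglyceride synthesis genes rose more often than they fell. Of 21 tested members 9 rose, beside 4.28% of all tested genes, and 2 fell, with a median of 0.58. Srebf1, the lipogenic transcription factor, had 113, 88.2 and 159 CPM on chow and 376, 495 and 316 CPM on HFCF, a rise of 1.74 (SE 0.23, adjusted p = 0.01). Scd1, the desaturase that makes oleate, had 4227, 4942 and 7811 CPM against 19479, 17613 and 19347 CPM, a rise of 1.78 (SE 0.27, adjusted p = 0.0113). The lowest HFCF library lay above the highest chow library in both genes. Fasn, fatty acid synthase, had 109, 149 and 191 CPM against 522, 273 and 359 CPM, a rise of 1.35 (adjusted p = 0.0204). Fads2 and Elovl5, of polyunsaturated fatty acid synthesis, rose by 1.41 and 1.15, Thrsp, a lipogenic regulator, by 1.40, Scd2 by 1.30, Agpat2, of phosphatidate synthesis, by 0.75, and Pnpla3, a droplet lipase linked to liver fat, by 1.66 from levels under 1 CPM.

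The members that fell were Lpin1 and Acss2. Lpin1, a phosphatidate phosphatase and coactivator, had 318, 188 and 407 CPM on chow and 52.6, 63.9 and 165 CPM on HFCF, a change of -1.82 (SE 0.44, adjusted p = 0.0348). Acss2, which makes acetyl-CoA from acetate, fell by 0.93. Elovl3, a male-biased elongase, was not a DEG (311, 114 and 157 CPM against 114, 109 and 73.7 CPM). The number of members that rose was 4 without chow WT 1 or HFCF WT 1, 5 without HFCF WT 3 and 10 without HFCF WT 2. Scd1 was not a DEG without chow WT 1 (adjusted p = 0.0546), Fasn without chow WT 1, HFCF WT 1 or HFCF WT 3, and Lpin1 was a DEG in 2 of the 6 fits without 1 library. Srebf1 was a DEG in all 6.

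Of 20 genes of fructose use, glycolysis and gluconeogenesis 2 rose and 1 fell, with a median of 0.12 (0.29 with totals alone and 0.21 under quantile normalization). Pcx, pyruvate carboxylase, rose from 300, 340 and 345 CPM to 543, 491 and 523 CPM (0.66, SE 0.09, adjusted p = 0.00988). Gys2, liver glycogen synthase, fell from 325, 290 and 307 CPM to 170, 170 and 163 CPM (-0.87, SE 0.07, adjusted p = 0.00251). Both had tight groups without overlap and were DEGs in all 6 fits without 1 library, and Pcx was not a DEG with GC and length trends removed. Gpd1, which makes glycerol 3-phosphate, rose by 0.71 and was a DEG in 2 of these fits. Khk, the fructokinase, had 417, 405 and 464 CPM against 482, 509 and 508 CPM, with no overlap and an estimate of 0.22 (adjusted p = 0.106). Pklr, liver pyruvate kinase, had an estimate of 0.60 with overlapping groups and was not a DEG. Pck1 and G6pc, of glucose production, had estimates of -0.55 and 0.07 and were not DEGs.

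Lipid droplet proteins included steep rises. Of 17 tested members 4 rose and 0 fell, and 16 estimates were positive, with a median of 0.55 (0.36 without HFCF WT 1 or HFCF WT 3). Cidea, a droplet fusion protein best known from brown fat, had 0.0952, 0.0643 and 0.188 CPM on chow, which are 3, 2 and 6 counts. On HFCF it had 106, 6.93 and 73.3 CPM, or 4138, 237 and 2398 counts. Its log2 fold change of 8.27 (SE 0.94, adjusted p = 0.00615) was the largest rise among DEGs with a mean of at least 3 CPM in the higher group. HFCF WT 2 stood far below the other HFCF libraries and still far above chow. Cidea was a DEG in 0 of the 3 fits without 1 chow library, where its adjusted p reached 0.0332 at most and its chow counts came under the minimum. Without 1 HFCF library it did not pass the filter on low counts and could not be fitted. The absence of overlap between its groups thus follows from that filter. With voom weights Cidea was not a DEG.

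Cidec, the related protein FSP27 that enlarges droplets (chromosome 6, 113424634 to 113435760, minus strand), had 3.24, 4.95 and 4.99 CPM on chow and 171, 32.2 and 158 CPM on HFCF, a rise of 4.47 (SE 0.59, adjusted p = 0.00988). It showed the same order of HFCF libraries as Cidea and was a DEG in all 6 fits without 1 library. Fitm1, which aids droplet formation, rose by 1.27, and Mgll, which cleaves monoacylglycerol, by 0.99. Plin2, the main coat protein of liver droplets, had 429, 426 and 420 CPM against 734, 501 and 651 CPM. Its groups did not overlap, and its change of 0.55 (adjusted p = 0.0373) was under the 1.5-fold limit. Plin4 had 11.2, 6.56 and 20.9 CPM against 31.5, 20.8 and 48.8 CPM and was not a DEG (1.46, adjusted p = 0.061). Without HFCF WT 2 the list held 6 DEGs, Plin2 and Plin4 among them.

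Fatty acid uptake and PPARgamma-linked genes rose in part. Of 12 tested members 4 rose and 0 fell, with a median of 1.05. Pparg itself had 7.68, 11 and 10.4 CPM on chow and 26.1, 14.8 and 23.5 CPM on HFCF, a rise of 1.12 (SE 0.23, adjusted p = 0.0223). Cd36, a fatty acid translocase, had 35.5, 30.8 and 51.7 CPM against 160, 96.3 and 216 CPM, a rise of 1.96 (SE 0.30, adjusted p = 0.0121). Mogat1, a monoacylglycerol acyltransferase, had 0.635, 0.707 and 1.54 CPM against 7.99, 5.7 and 15.2 CPM, a rise of 3.30 (SE 0.43, adjusted p = 0.00988). HFCF WT 2 was the lowest HFCF library in each of the 3 genes, without reaching the chow range. Fabp2, the intestinal fatty acid binding protein, rose from 64.4, 53.9 and 79.8 CPM to 236, 227 and 204 CPM (1.77, SE 0.14, adjusted p = 0.00251). The list held 8 DEGs without HFCF WT 2 and 2 without chow WT 1. Pparg was a DEG in 2 of the 6 fits without 1 library, Cd36 in 5 and Mogat1 in all 6.

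**Figure D2:**
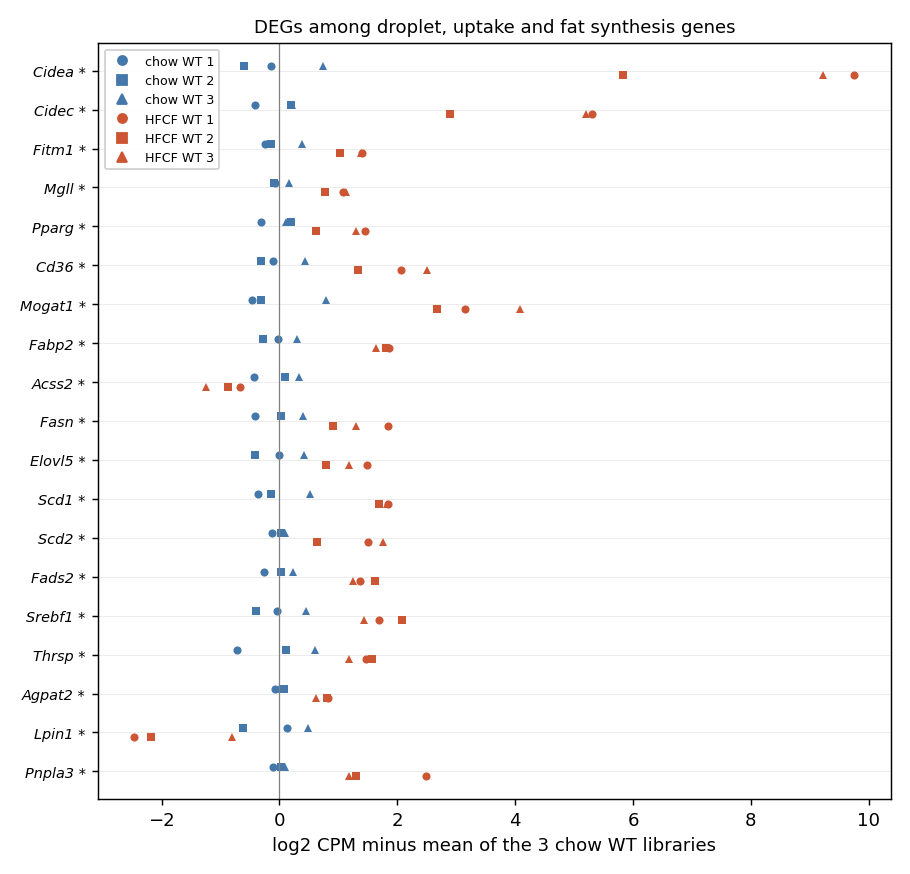
Each row is a DEG of the droplet, uptake or fat synthesis lists, and each point is 1 library, drawn as log2 CPM minus the mean of the chow WT libraries (blue, chow WT; red, HFCF WT; marker shape, replicate). Rises reach a log2 fold change of 8.27 for Cidea and 4.47 for Cidec, where the square of HFCF WT 2 lies nearest to chow, and Lpin1 (-1.82) and Acss2 (-0.93) lie to the left.

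Cfd, adipsin, a complement protease made in quantity by fat cells (chromosome 10, 79890853 to 79892655, plus strand), had 0.222, 0.868 and 1.26 CPM on chow and 252, 46.7 and 57.6 CPM on HFCF. It rose by 7.09 (SE 0.77, adjusted p = 0.00551) and was a DEG in all 6 fits without 1 library. Cidea and Cfd also belong to the list of adipocyte markers. Of the 4 markers of that list that were tested both these rose, while Adrb3 and Fabp4 were not DEGs. Adipoq, the adipocyte hormone adiponectin, had 1 count over the chow libraries and 2 over the HFCF libraries, and Plin1, the coat protein of fat cell droplets, had 3 and 3. The summed level of the adipocyte list was 10.6 to 12.6 CPM on chow and 383, 69.6 and 159 CPM on HFCF.

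Fatty acid oxidation genes held rises and no falls. Of 36 tested genes of oxidation, ketogenesis and PPARalpha targets 7 rose and 0 fell, with a median of 0.23 (0.14 without chow WT 2). The median was 0.41 with totals alone and 0.35 under quantile normalization. Ppara, the receptor that controls them, rose from 30.1, 31.2 and 30.8 CPM to 47.4, 50.3 and 41.4 CPM (0.59, SE 0.09, adjusted p = 0.0109). Acaa1b, a peroxisomal thiolase, had 1258, 1188 and 1537 CPM against 3254, 2644 and 2912 CPM, a rise of 1.15 (adjusted p = 0.00873). Neither gene showed overlap between the groups. Pdk4, which blocks pyruvate oxidation, rose by 2.14 from 2.06, 1.48 and 1.04 CPM to 13.5, 2.87 and 7.09 CPM. Fgf21, a fasting and stress hormone of the liver, rose by 1.84, Vnn1, a pantetheinase, by 1.17, Acot2 and Acot4, acyl-CoA thioesterases, by 1.10 and 0.69. Cpt1a, the entry step of mitochondrial oxidation, had 345, 339 and 337 CPM against 412, 442 and 457 CPM, with an adjusted p of 0.0228 and a change of 0.36, under the fold limit. Cyp4a14, an omega hydroxylase, had an estimate of -0.61 and overlapping groups. The list held 1 DEG without chow WT 1 or HFCF WT 1 and 3 without chow WT 3 or HFCF WT 3.

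Among 18 apolipoprotein and lipoprotein genes 2 rose and 1 fell, with a median of -0.10 that turned to 0.08 when libraries were scaled by totals alone and to 0.06 under quantile normalization, and ran from -0.16 to -0.06 when 1 library was left out. Apoa4, a lipoprotein component that the intestine makes in quantity (chromosome 9, 46240696 to 46243459, plus strand), had 83.5, 88.5 and 96.2 CPM on chow and 2975, 1714 and 2405 CPM on HFCF. It rose by 4.69 (SE 0.19, adjusted p = 0.000153), 25.8-fold, with little spread in either group. Gm10680 on the opposite strand (chromosome 9, 46242621 to 46243529), a model with 90.0% of its exon sequence opposite an exon of Apoa4, rose by 4.61. The study's methods give a counting by strand, and whether reads of the opposite strand were counted there was not tested. Apoc2, the activator of lipoprotein lipase, rose by 1.31 and shares 78.8% of its words with the overlapping model Gm44805. Apom, the carrier of sphingosine 1-phosphate in HDL, fell from 220, 196 and 180 CPM to 63.1, 85.9 and 65.5 CPM (-1.48, SE 0.13, adjusted p = 0.00257). Apob had 3095, 2717 and 2695 CPM against 2811, 2626 and 2827 CPM, and Mttp, which loads it with lipid, had 221, 220 and 232 CPM against 221, 208 and 213 CPM. Neither was a DEG. Apoa4, Gm10680, Apoc2 and Apom were DEGs in all 6 fits without 1 library.

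Xenobiotic oxidation enzymes fell more often than they rose. Of 41 tested Cyp1 to Cyp3 genes 7 fell, beside 2.68% of all tested genes, and 2 rose, a share near the 4.28% of all tested genes, with a median of -0.49. With totals alone 5 fell and 4 rose, with a median of -0.31, and under quantile normalization 6 fell and 0 rose. Cyp1a2, the caffeine-oxidizing enzyme, had 759, 697 and 640 CPM on chow and 204, 360 and 176 CPM on HFCF, a fall of 1.57 on the log2 scale (SE 0.24, adjusted p = 0.0122). Cyp2c55 fell from 17.3, 10.5 and 15.4 CPM to 3.29, 3.22 and 3.58 CPM (-2.06, SE 0.19, adjusted p = 0.00258). Cyp2c54 fell by 1.21, Cyp2c29 by 0.90, Cyp2c23 by 0.86, Cyp2f2 by 0.66 and Cyp1a1 by 1.35. Cyp2a22 and Cyp2c39, which share 34.6% and 26.9% of their words with related genes, rose by 2.59 and 1.19. Cyp3a11, the main mouse counterpart of human CYP3A4, had 3929, 3341 and 4492 CPM against 2107, 975 and 2474 CPM, with groups apart and an adjusted p of 0.0508. Cyp2b10, the classic target of the receptor CAR, had 20.5, 5.11 and 8.82 CPM against 0.179, 0.322 and 4.34 CPM (-3.90, SE 1.09, adjusted p = 0.0509). Cyp2b9 had 1.05, 0.0643 and 1.44 CPM against 2.02, 0.585 and 37.9 CPM, 1 HFCF library being high. Cyp2e1, the ethanol and acetaminophen oxidase, had an estimate of -0.16. The number that fell was 3 without chow WT 1 or chow WT 3, 4 without HFCF WT 1 and 12 without HFCF WT 2, the number that rose was 0 without any library other than HFCF WT 2, and Cyp1a2 was not a DEG without chow WT 1 (adjusted p = 0.053).

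Conjugation genes fell in a few members. Of 21 glutathione S-transferases 3 fell and 0 rose, with a median of -0.04 that turned to 0.14 when libraries were scaled by totals alone and ran from -0.18 to 0.12 when 1 library was left out. Gstp1 went from 3275, 3152 and 2820 CPM to 1214, 1236 and 839 CPM (-1.51, SE 0.17, adjusted p = 0.00607). It shares 38.5% of its words with Gstp2 and other genes, and Gstp2 fell by 0.77. Gstm6 fell by 0.66. Gsta4, which clears lipid aldehydes, had 85.4, 63.5 and 89.7 CPM against 58.1, 46.3 and 76.3 CPM and was not a DEG. Of 22 glucuronidation and sulfation genes 2 fell, Ugt1a9 by 1.51 and Ugt2b5 by 0.71, and they share 67.8% and 56.4% of their words with other genes of the family. Ugt2b5 was not a DEG with totals alone, under quantile normalization or with GC and length trends removed. Among 15 NRF2 targets and glutathione synthesis genes 2 rose and 0 fell, with a median of 0.23 (0.14 without HFCF WT 1, 0.15 without HFCF WT 3 and 0.37 without HFCF WT 2). With totals alone their median was 0.41. Srxn1, sulfiredoxin, rose by 1.06 and Pgd, of NADPH supply, by 0.70. They were DEGs in 5 and 2 of the 6 fits without 1 library, and the list held 0 rises without chow WT 1, 1 without chow WT 3, HFCF WT 1 or HFCF WT 3, and 4 without HFCF WT 2. Nqo1, a widely used NRF2 target, had 4.6, 4.02 and 5.77 CPM against 7.48, 5.97 and 9.81 CPM (0.68, adjusted p = 0.0671), and Gclc, of glutathione synthesis, had an estimate of 0.01. Without chow WT 1 or chow WT 3 the transferase list held 1 DEG, and without HFCF WT 2 it held 6 and the Ugt and Sult list 6.

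Among genes of nitrogen metabolism there were falls and no rises. Of 27 urea cycle and amino acid catabolism genes 9 fell, beside 2.68% of all tested genes, and 0 rose, with a median of -0.39 (-0.20 without HFCF WT 1). Cps1, the first step of the urea cycle, had 2395, 2200 and 2314 CPM on chow and 981, 1773 and 1281 CPM on HFCF (-0.82, SE 0.20, adjusted p = 0.0372). Ass1 and Asl, the next steps, fell by 0.92 and 0.75. Got1, the cytosolic aspartate transaminase, went from 317, 252 and 306 CPM to 101, 175 and 159 CPM (-1.04, SE 0.20, adjusted p = 0.0192). Agxt, which clears glyoxylate, fell by 1.04, and Gls2, liver glutaminase, by 1.01. Hal, Kynu and Tdo2, of histidine and tryptophan breakdown, fell by 0.85, 0.65 and 0.61. Sds, serine dehydratase, had overlapping groups and an estimate of -0.41. HFCF WT 2 had the highest level among the HFCF libraries in Cps1 and Got1. The list held 0 DEGs without chow WT 1 or chow WT 3 and 3 without HFCF WT 1 or HFCF WT 3. Without HFCF WT 2, 11 fell and 1 rose. With totals alone 6 fell and 1 rose, with a median of -0.21, and under quantile normalization 4 fell and 1 rose. Glul, glutamine synthetase of pericentral hepatocytes, had 792, 803 and 791 CPM against 1165, 1034 and 1251 CPM, with an adjusted p of 0.0183 and a change of 0.53, under the fold limit.

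One-carbon genes split. Of 16 tested members 2 rose and 2 fell. Bhmt, which remethylates homocysteine with betaine, rose from 1616, 2325 and 1736 CPM to 3014, 4333 and 3043 CPM (0.87, adjusted p = 0.031), and 29.8% of its words occur in other genes. Cth, which makes cysteine, fell from 348, 302 and 299 CPM to 140, 197 and 175 CPM (-0.90, SE 0.13, adjusted p = 0.0109). Gnmt, which spends methyl groups, fell by 0.85. Nnmt, which methylates nicotinamide, had 145, 135 and 140 CPM against 23.5, 111 and 69.6 CPM, with groups apart and an adjusted p of 0.104. Cth was a DEG in all 6 fits without 1 library, and the other 3 DEGs were called in 1 or 2 of them.

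Hepatocyte markers had lower estimates on HFCF. All 10 tested markers had negative estimates, with a median of -0.62, and 3 of them fell: Ahsg by 0.78, Serpina1a by 0.91 and Fgb by 0.86. Their summed level was 120969 to 146681 CPM on chow and 84386 to 98045 CPM on HFCF, so that the markers were abundant in every library and the tissue was as labelled. Under quantile normalization the median was -0.24. The list held 0 DEGs without chow WT 1, chow WT 3, HFCF WT 1 or HFCF WT 3. Hnf4a, the transcription factor that maintains hepatocyte identity, had 536, 459 and 517 CPM against 331, 390 and 344 CPM, with groups apart, an adjusted p of 0.0197 and a change of -0.51, under the fold limit. Hepatocyte transcription factors and nuclear receptors held 1 fall and 1 rise among 20 tested, with 7 positive estimates and a median of -0.17. All tested genes held falls in 2.68% and rises in 4.28%. The gene of this list that fell was Foxa3, by 1.00, a DEG in 2 of the 6 fits without 1 library. None of the 13 mitochondrially encoded genes were DEGs, and their median of -0.20 was -0.02 both with totals alone and under quantile normalization.

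Serpina1e, an alpha-1 antitrypsin gene, had the steepest fall of all DEGs. It had 12363, 12248 and 9268 CPM on chow and 890, 2597 and 145 CPM on HFCF (-4.01, SE 0.89, adjusted p = 0.0274). The HFCF libraries spread widely and all lay under the chow libraries. Over 54% of the words of its transcripts occur in other genes, chiefly Serpina1b, so that the split of reads between them is uncertain. It was a DEG in 2 of the 6 fits without 1 library. Of 17 male-biased liver genes tested 2 fell, C8b by 1.51 and Susd4 by 1.47, and 16 estimates were negative, with a median of -1.05 that was -0.45 without HFCF WT 3. The median of these genes was -0.53, -0.38 and -2.13 in the 3 HFCF libraries, relative to the chow mean. Hsd3b5, a steroid reductase and a standard marker of the male liver, had 298, 331 and 236 CPM against 70.8, 198 and 5.5 CPM (-2.74, SE 1.11, adjusted p = 0.13). HFCF WT 3 was the lowest library in Serpina1e, C8b, Susd4 and Hsd3b5. Without HFCF WT 2 the list held 6 DEGs that fell, and without HFCF WT 1 or any 1 chow library it held 0. None of 12 female-biased genes were DEGs. Their median of 0.07 ran from -0.11 to 0.37 when 1 library was left out and was -0.15 under quantile normalization. Mup20, a male urinary protein that shares 64.5% of its words with other Mup genes, had an estimate of 0.46.

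The genes with the largest changes by level came from several groups. Beside those already given, Gpnmb, Ephb2, Themis, Gm10800 and B430212C06Rik rose most. Themis, a T cell signalling protein, had 0.381, 0.868 and 0.596 CPM on chow and 11.4, 6.26 and 20 CPM on HFCF (4.23, SE 0.45, adjusted p = 0.00521) and was a DEG in all 6 fits without 1 library. None of the 14 tested T, B and cytotoxic lymphocyte markers were DEGs. Cd3e, a T cell receptor subunit, had 0.254, 0.257 and 0.345 CPM against 0.332, 0.176 and 0.306 CPM. Ephb2, an ephrin receptor, had 0.159, 0.225 and 0.0628 CPM against 4.37, 2.34 and 3.82 CPM, a rise of 4.52 (adjusted p = 0.00513). B430212C06Rik, an RNA gene with about 34% of its exon sequence opposite exons of Impa2, rose by 4.77, and Gm10800, which shares 42% of its words with Gm10717 and others, by 5.69. Of the 3 fits without 1 library in which they could be fitted, Ephb2 was a DEG in 1, B430212C06Rik in 2 and Gm10800 in 0. These genes passed the filter on low counts through their HFCF libraries alone, so that an absence of overlap follows from the filter.

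Further large falls were found in genes of several kinds. Enho, which encodes the peptide adropin, went from 19.6, 14.1 and 10.2 CPM to 1.15, 2.81 and 1.56 CPM (-3.03, SE 0.35, adjusted p = 0.00652). Adgrf1, an adhesion receptor, fell by 3.46, Slc13a2, a citrate transporter, by 2.83, Wnk4, a kinase of salt transport, by 2.49, and Raet1e, a ligand of the receptor NKG2D, by 2.50. Groups did not overlap in any of these genes. Gm3839 fell by 2.18 and shares 67.8% of its words with Gapdh and its copies. Enho, Wnk4 and Raet1e were DEGs in all 6 fits without 1 library, Slc13a2 in 4, and Adgrf1 and Gm3839 in 2.

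Acute-phase genes moved both ways. Of 28 tested genes 4 rose and 5 fell, with a median of -0.08 that turned to 0.10 when libraries were scaled by totals alone and ran from -0.25 to 0.01 when 1 library was left out. Orm3, an orosomucoid, had 0.889, 1.83 and 1.16 CPM on chow and 9.81, 7.25 and 23.2 CPM on HFCF (3.24, SE 0.44, adjusted p = 0.0104). Lcn2, an iron-binding lipocalin, rose by 2.86, from 1.75, 4.4 and 2.35 CPM to 12.5, 12.3 and 45.6 CPM. The serum amyloid genes Saa1 and Saa2 rose by 1.59 and 2.59, and Saa1 shares 46.8% of its words with Saa2. HFCF WT 3 was the highest library for these 4 genes. Orm2 had 9.65, 8.84 and 6.18 CPM against 13.6, 12.4 and 36.7 CPM and was not a DEG. The fibrinogen genes Fga, Fgb and Fgg fell by 0.77, 0.86 and 0.75, Itih3 by 0.62, and Lbp, the lipopolysaccharide binding protein, by 0.63. The number that fell was 0 without chow WT 1, chow WT 3, HFCF WT 1 or HFCF WT 3, and 8 without HFCF WT 2, and the number that rose was 1 without chow WT 1 or chow WT 3 and 2 without HFCF WT 3. Both with totals alone and under quantile normalization 2 acute-phase genes fell.

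Markers of lipid-associated and recruited macrophages rose in part. Of 17 tested markers 7 rose, beside 4.28% of all tested genes, and 1 fell, with a median of 1.25. Trem2, a lipid-sensing receptor of macrophages, had 0.476, 0.643 and 0.534 CPM on chow and 4.34, 1.7 and 7.52 CPM on HFCF (2.77, SE 0.49, adjusted p = 0.0158). Gpnmb, a glycoprotein of lipid-laden macrophages, had 0.127, 0.354 and 0.126 CPM against 10.1, 1.76 and 26.6 CPM (5.32, SE 0.91, adjusted p = 0.0151). Mmp12, macrophage elastase, had 0.222, 0.193 and 0.251 CPM against 4.32, 1.32 and 13 CPM (4.15, SE 0.72, adjusted p = 0.0154). HFCF WT 3 was highest and HFCF WT 2 lowest of the HFCF libraries in each, and none reached into the chow range. Mmp12 passed the filter on low counts through its HFCF libraries alone, so that its absence of overlap follows from the filter. With voom weights none of these 3 genes was a DEG. Lgals3, galectin-3, rose by 1.95, Cd68 by 1.25, Lyz2, lysozyme, by 1.21, and Tyrobp, the adaptor of Trem2, by 0.88.

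Fabp5, the 1 gene of this list that fell, is not confined to macrophages. It had 21.3, 40.2 and 40.3 CPM on chow and 22.2, 13.1 and 12.7 CPM on HFCF (-1.07, adjusted p = 0.0499), with 1 HFCF library inside the chow range, and it was a DEG in 1 of the 6 fits without 1 library and in 3 of 12 other settings, so that the list held 0 falls with RLE factors. Spp1, osteopontin, had 26.4, 63.9 and 38.5 CPM against 73.3, 29.5 and 74.8 CPM and was not a DEG. The summed level of the list was 120 to 191 CPM on chow and 267, 157 and 374 CPM on HFCF, so that HFCF WT 2 lay within the chow range. The number of markers that rose was 0 without chow WT 1 or chow WT 3, 1 without HFCF WT 1 and 9 without HFCF WT 2.

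Among 14 markers of resident Kupffer cells 3 rose and 1 fell, with a median of 0.49. Cd5l, a scavenger protein of these cells, rose from 42.7, 50.9 and 39.6 CPM to 90.4, 77.6 and 148 CPM (1.20, SE 0.22, adjusted p = 0.0179). Vsig4, a complement receptor, rose by 0.68 and Folr2, a folate receptor, by 0.80, and Marco, a scavenger receptor, fell by 0.96. About 63% of the Folr2 exon sequence lies opposite exons of Gm10602. Clec4f, which marks Kupffer cells, had 55.9, 54.6 and 47.4 CPM against 71.2, 66.8 and 81.1 CPM, with groups apart, an adjusted p of 0.0243 and a change of 0.47, under the fold limit. Timd4, which marks long-lived Kupffer cells, had 3.11, 3.86 and 2.95 CPM against 2.89, 2.46 and 2.48 CPM, also apart and not a DEG (-0.34, adjusted p = 0.197). The summed level was 355 to 409 CPM on chow and 451 to 644 CPM on HFCF. The list held 0 DEGs without chow WT 1 or chow WT 3, 1 without chow WT 2, HFCF WT 1 or HFCF WT 3, and 7 without HFCF WT 2.

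Chemokine and interferon genes rose in a few members. Of 23 chemokines and inflammatory signals 3 rose and 1 fell, with a median of 0.63 (0.36 without HFCF WT 1). Ccl2, which draws monocytes, rose by 2.32 from 0.413, 0.129 and 0.251 CPM to 1.35, 0.673 and 2.17 CPM, and Ccl22 rose by 2.36. Cxcl13, which draws B cells, fell by 2.80. Of 28 interferon-stimulated genes 3 rose (Ifit2 by 1.13, Mx1 by 1.30 and Xaf1 by 0.80) and 26 estimates were positive, with a median of 0.39. Means of Ccl22, Cxcl13 and Mx1 were under 1 CPM in each diet, so that their changes rest on low levels. Isg15 had overlapping groups and an estimate of 0.40. None of the 8 MHC class II genes were DEGs, although all 8 estimates were positive, and Cd74, the invariant chain, had 44.1, 104 and 64.2 CPM against 108, 64.4 and 155 CPM. Neither the chemokine nor the interferon list held a DEG that rose without chow WT 1, chow WT 3, HFCF WT 1 or HFCF WT 3, and without HFCF WT 2 they held 9 and 5.

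The count of matrix genes that rose depended on which library was left out. Of 31 tested stellate cell and matrix genes 2 rose, a share near the 4.28% of all tested genes, with a median of 0.60, and 30 estimates were positive. Col15a1, a basement membrane collagen, rose from 0.54, 2.12 and 1.35 CPM to 3.4, 4.15 and 5.17 CPM (1.84, adjusted p = 0.0368). Lrat, the retinol acyltransferase of stellate cells, rose from 9.17, 9.8 and 9.38 CPM to 16.5, 12.2 and 18.3 CPM (0.71, SE 0.15, adjusted p = 0.0246). Col1a1, the main fibrillar collagen, had 2.82, 8.71 and 4.9 CPM on chow and 29.5, 4.68 and 32.2 CPM on HFCF, and Col3a1 had 13.5, 25 and 17.4 CPM against 61.8, 16.6 and 66.6 CPM. HFCF WT 2 lay within the chow range for both collagens, and the other HFCF libraries lay above it. Neither was a DEG (adjusted p = 0.146 and 0.149). The summed level of the list was 324 to 402 CPM on chow and 638, 346 and 750 CPM on HFCF. Without HFCF WT 2 there were 18 DEGs that rose in the list, Col1a1 among them, and without any other HFCF library, chow WT 1 or chow WT 3 there were 0.

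Of 16 sinusoidal endothelial markers Plvap, a marker of capillary endothelium, rose by 0.92 and Ephb4 fell by 0.65, and Stab2, a scavenger receptor of these vessels, had an estimate of 0.21. Plvap was a DEG in 3 of the 6 fits without 1 library and Ephb4 in 4, and the list held 0 DEGs without chow WT 1 or chow WT 3. None of 9 cholangiocyte markers and 3 neutrophil markers were DEGs, and Krt19, a bile duct keratin, had an estimate of -0.14.

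Targets of p53 rose in part. Of 14 tested targets 5 rose and 0 fell, with a median of 0.77. Cdkn1a, the cell cycle inhibitor p21, had 1.14, 1.16 and 1.16 CPM on chow and 11.4, 5.94 and 26.6 CPM on HFCF (3.38, SE 0.47, adjusted p = 0.0104) and was a DEG in all 6 fits without 1 library. Its chow libraries were close together and its HFCF libraries spread widely, HFCF WT 2 lowest and HFCF WT 3 highest. Eda2r, a death receptor family member, rose by 2.62, Phlda3 by 1.97, Ccng1 by 0.77 and Zmat3 by 0.61. Of 22 cell cycle genes 4 rose, all of them subunits of the MCM replication helicase: Mcm2 by 1.49, Mcm5 by 1.45, Mcm3 by 1.17 and Mcm4 by 0.89. Mki67, a marker of dividing cells, had 0.73, 0.739 and 0.502 CPM against 2.32, 0.497 and 2.17 CPM, and Ccnd1 had 10.1, 18.3 and 11.7 CPM against 23.5, 13.8 and 47.3 CPM. HFCF WT 2 lay within or below the chow range for both, and neither was a DEG. The number of cell cycle genes that rose was 11 without HFCF WT 2, 1 without chow WT 2 or HFCF WT 3 and 0 without the other libraries, and the p53 list held 8 DEGs without HFCF WT 2 and 2 to 4 without any other library.

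**Figure D3:**
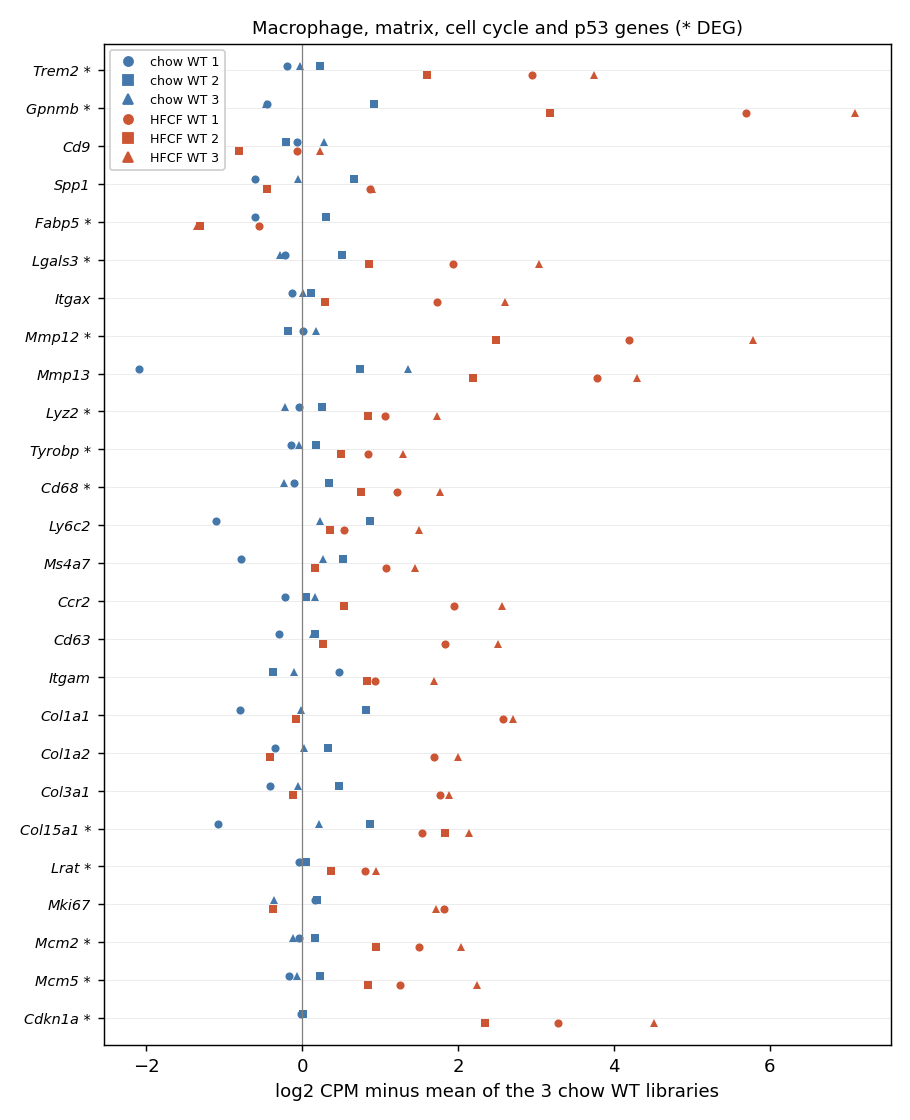
Each row is a macrophage marker, matrix, cell cycle or p53 gene, and each point is 1 library, drawn as log2 CPM minus the mean of the chow WT libraries (blue, chow WT; red, HFCF WT; marker shape, replicate; asterisk, DEG). The squares of HFCF WT 2 lie nearest to the blue points in Gpnmb (5.32), Mmp12 (4.15) and Cdkn1a (3.38), among them in Col1a1, and just below them in Mki67.

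Of 23 unfolded protein and integrated stress response genes 2 rose and 2 fell, beside 4.28% and 2.68% of all tested genes. Asns, asparagine synthetase, fell by 2.55 from 1.49, 5.11 and 3.2 CPM to 1.05, 0.293 and 0.367 CPM, and Ern1, the sensor IRE1, by 0.64, while Sdf2l1 and Sesn2 rose by 0.70 and 0.66. Of the 6 fits without 1 library Asns and Sesn2 were DEGs in 1 each, Sdf2l1 in 2 and Ern1 in 4, and the list held 0 DEGs without chow WT 1. Hspa5, the main endoplasmic reticulum chaperone, had an estimate of 0.16, Ddit3, which encodes CHOP, one of -0.54 (adjusted p = 0.0442, under the fold limit), and Gdf15, a stress hormone, one of 0.90 with overlapping groups. Of 17 circadian clock genes none were DEGs, with a median of -0.23 (-0.15 without HFCF WT 1, -0.13 without HFCF WT 3 and -0.05 with totals alone). Arntl and Dbp, which peak at opposite times of day, had estimates of 0.42 and -0.45. Of 13 immediate-early genes none were DEGs. Of 22 lysosomal genes 2 rose, among them Ctss by 0.98, which was a DEG in 1 of the 6 fits without 1 library, and the list held 0 DEGs without chow WT 1, chow WT 3 or HFCF WT 3. Ctsd had an estimate of 0.40 (adjusted p = 0.0389, under the fold limit). None of 5 fetal liver genes were DEGs. Of 5 erythroid genes Hbb-bs, a beta globin, rose by 0.73, and the list held 3 rises without chow WT 1 and 0 without any other library. The summed level of the list was 468 to 715 CPM on chow and 686 to 819 CPM on HFCF. Of 7 histone genes Hist1h1c rose by 1.46. The 1 exocrine pancreas marker that was tested was not a DEG.

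**Figure D4:**
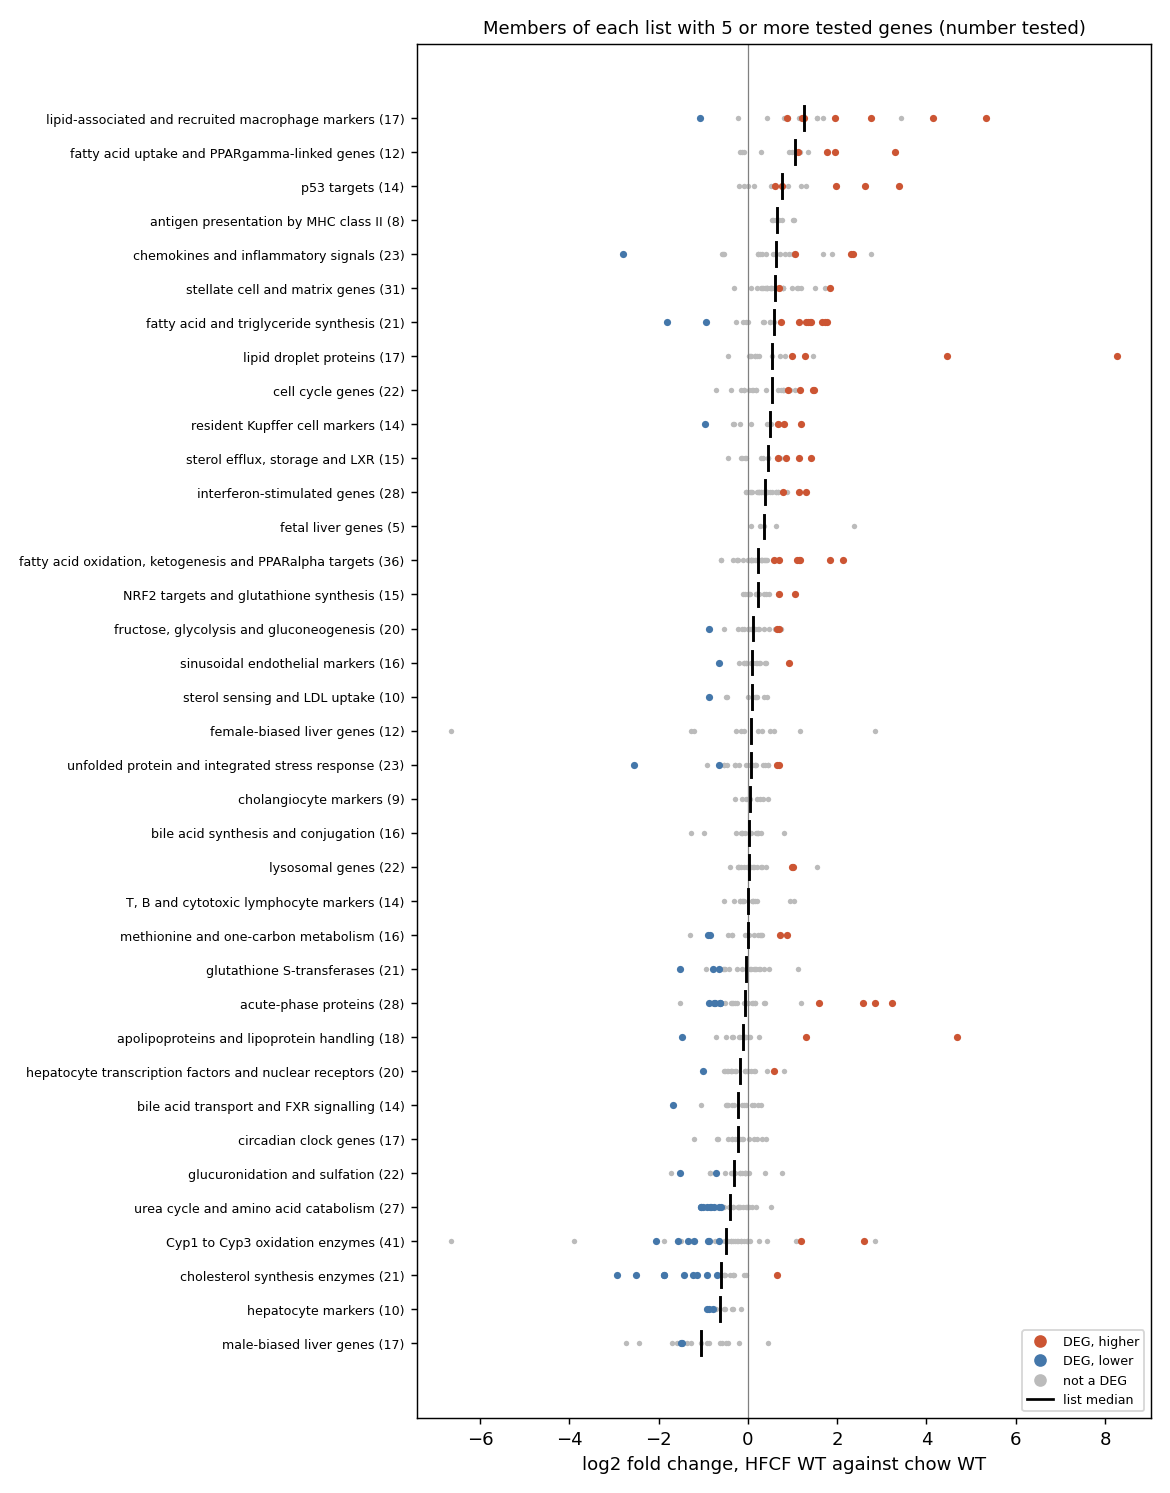
Each row is a list with at least 5 tested genes (number in brackets), each point is the log2 fold change of 1 member (red, DEG that rose; blue, DEG that fell; grey, not a DEG), and the black line is the list median. The medians run from -1.05 for male-biased genes (-0.45 without HFCF WT 3) to 1.25 for lipid-associated macrophage markers, with -0.61 for cholesterol synthesis (-0.49 without HFCF WT 3).

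Elavl1, the floxed gene that the WT livers retain, had 29.8, 28.2 and 29.8 CPM on chow and 23.1, 23.1 and 26 CPM on HFCF. The groups did not overlap, and the log2 fold change of -0.28 (SE 0.08, adjusted p = 0.0508) did not make it a DEG.

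The same diet comparison in HuRHep-/- livers used the same 2 tables, and a shift between the tables is therefore shared. The difference of the diet effects between genotypes was tested in 14535 genes, of which 0 were called (0%) at an adjusted p of at most 0.05 with limma, while 2123 had an unadjusted p under 0.05. On simulated counts this test recovered 88% of 4-fold and 44% of 2-fold differences, so that 0 calls do not show equal diet effects. In the data, weighted fits with voom called 1, and leaving out HFCF WT 3 gave 40. The smallest adjusted p was 0.0715, reached by Dio1, the thyroid hormone deiodinase, among others. Dio1 rose in WT livers from 97.2, 108 and 98.7 CPM to 156, 161 and 158 CPM (0.64, SE 0.07, adjusted p = 0.0055), and its estimate in HuRHep-/- livers was -0.56. Hectd2os fell by 0.76 in WT livers and had an estimate of 0.69 in HuRHep-/- livers. Slc39a4, a zinc importer, had -0.50 and 0.38, Slc17a4, an organic anion transporter, had 0.27 and 1.39, and Mup19, whose words all occur in other Mup genes, had 0.39 and -4.29. For the main genes of the WT comparison the estimates in HuRHep-/- livers were 9.78 for Cidea, 7.86 for Cfd, 3.64 for Apoa4, 5.32 for Cidec, 3.10 for Scd1, -4.24 for Sqle and -2.88 for Idi1.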

How the data were processed

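Bulk RNA-seq of whole liver was used from 6 WT libraries, 3 per diet, grouped by the deposited labels, with the 6 HuRHep-/- libraries entering the test of the diet effects between genotypes. RNA was extracted with a column kit, all samples had an RNA integrity number above 6, and libraries were made with a stranded kit. Per the labels and the study's methods, the authors aligned reads to GRCm38.p6 (mm10) in CLC Genomics Workbench with a reverse-strand setting and deposited read counts per gene without normalization, in 1 table per diet. The deposited counts are whole numbers written as text with commas, which were stripped here. Their unit was recorded as other, so that no count model was used. There are 20775 genes on chow and 22709 on HFCF, and the 20093 listed for both diets were joined and scaled together. Columns that belong to no sample numbered 0. The expression of a gene is given as its count relative to the library total and to a TMM factor (trims of 0.3 and 0.05), and log2 CPM used a pseudocount of 0.5.

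A gene was kept when 3 or more libraries reached a CPM worth 10 counts at median depth and its counts summed to 15 or more. Diets were compared with limma 3.58.1 with a variance trend in R 4.3.3, with Benjamini-Hochberg adjustment over all tested genes. The p-values of limma come from a t distribution and can fall under 0.1, the smallest that an exact permutation of 3 against 3 libraries can give. Thresholds for a DEG follow the study's methods, with 10 counts per group in place of its RPKM limit. On simulated counts with 200 changed genes, 95% of those changed 4-fold and 68% of those changed 2-fold were recovered, and 7.91% of calls were false. The changed genes were drawn from genes with mean counts above the filter, so that the recovery does not cover genes with few counts. No difference between the deposited tables was simulated.

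The comparison, the 44 gene lists and the tests were chosen with earlier results of these data known. The genes named were the top 10 DEGs in each direction by fold change whose groups do not overlap and whose mean is at least 3 CPM in the higher group, index genes of each list whatever their result, up to 2 rises and 2 falls per list with a mean of at least 1 CPM, Elavl1, and the top 5 genes by p in the test of the diet effects between genotypes. Other DEGs of a list are named to complete its count, and some genes counted in the lists are not reported here by name. The rule for sequences, promoters of cholesterol DEGs that hold TCACNCCAC, found none, and the 4 promoters shown were chosen after their values were seen. Shared words are the share of 31-base words, over all annotated transcripts of a gene, that occur in transcripts of other genes. Positions are those of GENCODE on GRCm38. Alternatives were RLE and upper-quartile factors, totals alone, quantile normalization, a pseudocount of 2, other filters, voom weights, the replicate number as a block, removal of GC and length trends, all 12 libraries in 1 fit, other thresholds and leaving out each library.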

Additional observations from a re-analysis of the deposited data

Results flagged for a closer look

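Genes listed in the HFCF table and not in the chow table entered no comparison, and 11 of them had at least 10 counts over the 3 HFCF WT libraries, which is more than the 3 counts that a count of 0 allows. Scnn1g, a subunit of the epithelial sodium channel, had 40, 1 and 9 counts, Sardhos 11, 0 and 11, Gm20528 18, 0 and 0, Duxf3 10, 7 and 0, and Sptlc3, a subunit of serine palmitoyltransferase, 3, 5 and 5. Of the genes listed in the chow table alone, 2 reached that level over the chow WT libraries, Gm15491 with 0, 0 and 27 counts and Cd209f with 6, 4 and 4. Every listed gene had a count in some library of its table, so that a gene missing from a table may have had 0 counts there.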

How the results depend on the processing

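Higher and lower DEGs numbered 587 and 367. The counts moved by over 1.5 times when libraries were scaled by totals alone (1142 and 154), without a fold-change threshold (932 and 1115), when the test was against a 1.5-fold change (26 and 8), and, for rises, with the replicate number as a block and GC and length trends removed (366, beside 271 falls). Leaving out single libraries gave 127 to 917 that rose and 88 to 464 that fell. The other settings gave 439 to 878 and 288 to 482. Without 1 library, 920 to 949 of the 954 DEGs were fitted and had the same direction. Replicate numbers were not treated as pairs: deviations of same-numbered libraries correlated at -0.13, 0.06 and 0.17 and 1 of 3 chow libraries correlated best with its own number. With the replicate number as a block there were 442 and 319 DEGs, and the difference of the diet effects had 0 calls with the block, with or without the trends. Calls for that difference numbered 11 with totals alone, 10 with quantile normalization, 1 without the filter, 1 with voom weights and 0 to 40 when 1 library was left out. The cause of these changes was not tested. Of 148 named genes 137 kept their sign in all fits, and 23 of 90 named DEGs were called in all 6 fits without 1 library.

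Estimates that changed sign were all of genes outside the DEGs. With totals alone Apob became 0.14, Cyp27a1 0.017, Nr0b2 0.13, Mttp 0.11, Cyp2e1 0.014, Krt19 0.040 and Cd3e 0.066. With quantile normalization Apob became 0.26, Mttp 0.047 and Cyp2e1 0.22, and with upper-quartile factors Apob 0.0028. With GC and length trends removed, with or without the block, Apob became 0.088 and Cyp8b1 -0.015. With all 12 libraries Gclc became -0.0022. Without 1 library the estimates ran from -0.075 to 0.025 for Apob, -0.18 to 0.14 for Nr0b2, -0.42 to 0.12 for Krt19, -0.19 to 0.16 for Cd3e, -0.041 to 0.14 for Cyp8b1, -0.081 to 0.11 for Gclc, -0.035 to 0.17 for G6pc and -1.78 to 0.037 for Cyp4a14.

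With 3 libraries per group and a table per diet, low genes such as Cidea on chow rest on few counts, and diet and table cannot be told apart.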

Other observations

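In 7 of the joined genes, 1 WT group had 0 counts in every library and the other at least 30 in all, 4 with the counts on HFCF and 3 with the counts on chow. Sprr1a, a cornified envelope protein, had 37, 13 and 130 counts in the HFCF WT libraries, 0 in the chow WT libraries, 6, 2 and 0 in the chow HuRHep-/- libraries and 88, 128 and 112 in the HFCF HuRHep-/- libraries. Pnpla5, a patatin-like lipase, had 33, 6 and 13 counts in the HFCF WT libraries, 35, 25 and 8 in the HFCF HuRHep-/- libraries and 1 count in all over the 6 chow libraries. Cyp3a41b, from a family of near-identical genes, had 45, 68 and 29 counts in the chow WT libraries and 0 in the HFCF WT libraries, and in HuRHep-/- livers 0, 0 and 27 on chow and 47, 0 and 0 on HFCF. Rdh16f1, a retinol dehydrogenase family member, had 138, 45 and 101 counts in the chow WT libraries, 0 in the HFCF WT libraries and 0 to 51 elsewhere. These genes were outside the DEGs because a group lay under the count minimum or because, as for Pnpla5, they did not pass the filter on low counts. All were picked after their counts were seen.

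Of the 950 WT DEGs that could be fitted in HuRHep-/- livers, the medians there were 0.99 for genes that rose in WT livers and -0.70 for genes that fell, beside 1.07 and -0.77 in WT livers. The 2 comparisons share no library and do share the 2 tables.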
